A study of Homo sapiens with 8 samples.

Results

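Peaks of RBFOX2 eCLIP at microRNA (miRNA) precursor genes were examined in HEK293T cells. A called peak was counted at a miRNA gene when its midpoint lay inside the RefSeq span of a gene of biotype miRNA, widened by 100 nt on each side, and outside the spans of snoRNA and scaRNA genes. Host genes were not used, and peaks on either strand were kept. The rule took 1231 of the 1118316 called peaks of 4 libraries, which were 283 of 267691 in replicate 1, 300 of 281701 in replicate 2, 322 of 288305 in replicate 3 and 326 of 280619 in replicate 4. A further 132 peaks near miRNA genes were left out because they lay inside a snoRNA or scaRNA span. The widened spans of neighbouring miRNA genes can overlap, and 47 peaks lay in more than 1 of them. Such a peak was counted for each gene.

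HEK293T is a line derived from human embryonic kidney cells. The study holds 4 IP libraries against RBFOX2 and 4 inputs, numbered 1 to 4, and no other genotype, antibody or treatment. Each sample started from 10000000 cells crosslinked with 400 mJ/cm2 of ultraviolet light at 254 nm, and the input was 2% of the same sample. Nothing in the labels says that the replicates came from separate cultures, so the spread between them may be technical. There is no IP from cells without RBFOX2, and the lists hold no expression values against which the cell line could be checked.

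A miRNA is cut from a hairpin in a longer primary transcript. The nuclear Microprocessor, made of the nuclease Drosha and its RNA-binding partner DGCR8, releases the hairpin, and the cytoplasmic nuclease Dicer removes its loop to leave a 5p and a 3p arm. An arm loaded into an Argonaute protein represses messenger RNAs that pair with its seed, here bases 2 to 8. RBFOX2 is a splicing regulator that binds GCAUG in introns, and RBFOX proteins have also been described on the precursors of some miRNAs. Many miRNA hairpins lie inside the introns or exons of other genes, so a peak beside a hairpin can also belong to the transcript of the host.

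The mature sequences of the genes that the results turn on are given with the seed in capitals, from RefSeq (GRCh38.p14). The first set shows the cluster in MIR17HG, the best covered of the well-known clusters, and MIR32, whose seed is that of MIR92A1:
hsa-miR-17-5p: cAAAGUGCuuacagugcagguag
hsa-miR-20a-5p: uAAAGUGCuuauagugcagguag
hsa-miR-18a-5p: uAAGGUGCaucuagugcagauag
hsa-miR-19a-3p: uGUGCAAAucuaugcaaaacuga
hsa-miR-19b-3p: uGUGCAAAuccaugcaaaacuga
hsa-miR-92a-3p: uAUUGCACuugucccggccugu
hsa-miR-32-5p: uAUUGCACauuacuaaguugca
The second set shows the genes with the highest folds, in the order of their means, and none of these arms shared a seed with another of them:
hsa-miR-1306-5p: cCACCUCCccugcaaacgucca
hsa-miR-1306-3p: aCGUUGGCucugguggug
hsa-miR-3618: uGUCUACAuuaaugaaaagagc
hsa-miR-769-5p: uGAGACCUcuggguucugagcu
hsa-miR-1914-3p: gGAGGGGUcccgcacugggagg
hsa-miR-4479: cGCGCGGCcgugcucggagcag
hsa-miR-1271-5p: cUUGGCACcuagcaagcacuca

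Each deposited peak carries the log2 fold of IP over the input of the same number and a −log10 p, both as the authors computed them. Enriched peaks were those with both values at 3 or above, limits that are customary for eCLIP and that the labels do not state. Without read counts the depth behind a fold is unknown, and its counting error cannot be given. Over all peaks, 0.861%, 0.848%, 0.789% and 0.775% were enriched in replicates 1 to 4.

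The first question was whether peaks at miRNA genes were enriched over input more often, or more strongly, than other peaks. Enriched peaks were rare at miRNA genes. There were 5 in replicate 1, 3 in replicate 2, 3 in replicate 3 and 2 in replicate 4. These are 1.77%, 1.00%, 0.932% and 0.613% of the miRNA-gene peaks of each library, close to the background shares just given. The mean share was 1.08% ± 0.489 (SD, n = 4) at miRNA genes and 0.818% ± 0.0421 among all other peaks. The difference of 0.260 ± 0.455 percentage points (SD, n = 4) was positive in 3 of 4 libraries and smaller than its spread (exact sign-flip permutation over the libraries, two-sided p = 0.5). Peaks inside snoRNA and scaRNA genes, another class of small non-coding RNA, were enriched in 1.38% ± 0.491 of cases. MiRNA genes lay below them by 0.300 ± 0.528 percentage points, again less than the spread (exact permutation, p = 0.375). The smallest p that 4 libraries allow in this test is 0.13. Without the widening of the spans the difference from other peaks was −0.451 percentage points, and with 500 nt in place of 100 it was 0.824.

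The mean log2 fold separated the classes in every library. At miRNA genes it was 0.51, 0.31, 0.31 and 0.41 in replicates 1 to 4, and among all other peaks it was 0.20, 0.18, 0.13 and 0.17, so the ranges did not overlap. The difference was 0.22 ± 0.08 (SD, n = 4), positive in 4 of 4 libraries (exact permutation, two-sided p = 0.13). It came with fewer peaks at a −log10 p of 0, which were 58.5% ± 6.52 of miRNA-gene peaks and 74.2% ± 8.03 of other peaks (SD, n = 4). The part of this in the difference of the means was not tested. Low folds were about as frequent in both: 22.9% ± 2.93 of miRNA-gene peaks and 23.6% ± 0.486 of other peaks were more than 0.5 under 0 (SD, n = 4). The log2 fold exceeded 0.5 in 42.1% ± 3.15 of miRNA-gene peaks and 31.4% ± 1.35 of other peaks (SD, n = 4), a difference of 10.7 ± 2.01 percentage points and positive in 4 of 4. When peaks inside snoRNA and scaRNA spans were kept among the miRNA-gene peaks, the difference of the mean log2 folds was 0.05 ± 0.06. The medians did not separate. The median at miRNA genes was 0.10 in replicate 1 and within 0.01 of 0 in the other 3, as for other peaks. The snoRNA and scaRNA peaks had a mean log2 fold of −0.65 ± 0.10 (SD, n = 4), below both.

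**Figure D1:**
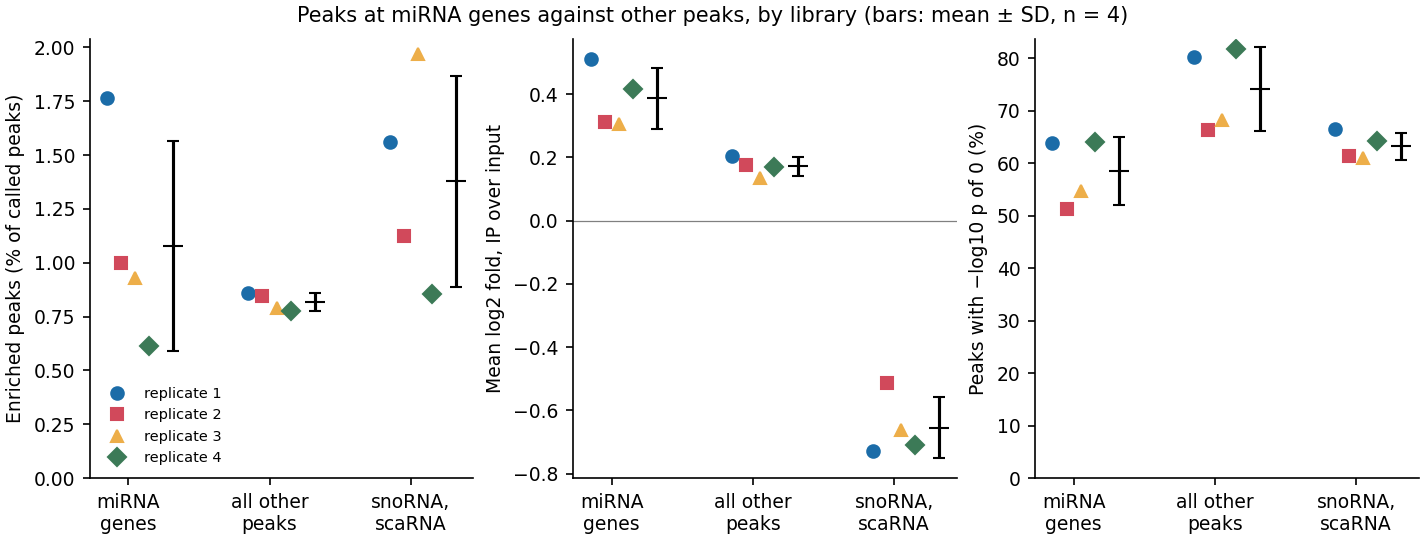
Share of enriched peaks, mean log2 fold and share of peaks with a −log10 p of 0 for peaks at miRNA genes, all other peaks and peaks in snoRNA and scaRNA genes. Points are the 4 libraries and bars give the mean ± SD; the miRNA points lie above the other peaks in all 4 libraries for the mean fold only, while the share of enriched peaks runs from 0.613% to 1.77% around the background.

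Of 1913 miRNA genes, 451 (23.6%) had a called peak in at least 1 library. A called peak was found in 1 library for 189 genes, in 2 for 101, in 3 for 69 and in all 4 for 92. An enriched peak was found at 8 genes, and at none of them in all 4 libraries. MIR3618, a hairpin gene inside DGCR8, had one in replicates 2, 3 and 4. MIR4479, inside TRAF2, had one in replicates 1 and 4. The other 6 genes had one in a single library: MIR1306 (2 peaks), MIR1914 and MIR647 in replicate 1, MIR6859-1 in replicate 2, and MIR7113 and MIR296 in replicate 3. MIR6859-1, MIR7113 and MIR296 fall outside the rule for named genes and were named after their values were seen. At MIR296 the peaks of the other libraries had their midpoints outside the widened span, and the merged region is given below. MIR6859-1 is a member of a family of near-identical copies, and how reads that match several copies were assigned is not given in the sources used here. The −log10 p of the 13 enriched peaks ran from 3.01 to 17.2, and 13 further peaks had a log2 fold of at least 3 with a −log10 p of at most 2.74.

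For each gene and library, the peak with the highest −log10 p was taken as the gene's value, a choice that favours the higher of several peaks. Among the 92 genes with a called peak in all 4 libraries, the mean log2 fold over libraries was above 0 in 68 and below 0 in 24, with a median of 0.58. Only 39 genes were above 0 by more than 0.01 in 4 of 4 libraries, and 1 was below 0 in 4 of 4. The mean was at least 2 in 17 genes and at least 3 in 3. The median SD over libraries was 0.68, so most neighbours in this order do not differ beyond their spread.

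The highest values lay in DGCR8, the gene of Drosha's partner in Microprocessor, whose messenger RNA carries the hairpins of MIR3618 (chromosome 22, 20085746 to 20085833, plus strand) and MIR1306 (20086058 to 20086142, plus strand). The table used gives gene spans without exons, so the part of DGCR8 that holds them is not stated. Over replicates 1 to 4, MIR1306 had log2 folds of 4.17, 2.86, 2.69 and 2.86, with a mean of 3.14 ± 0.69 (SD, n = 4). Replicate 1 stood above the others. That of MIR3618 was 2.55, 3.52, 3.30 and 3.20 (3.14 ± 0.42, SD, n = 4), with replicate 1 the lowest. The −log10 p ranged from 8.80 to 17.2 at MIR1306 and from 6.52 to 9.96 at MIR3618, the highest at any miRNA gene called in all 4 libraries.

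The peaks at both genes lay beside the hairpins more than on them. No called peak of any library had its midpoint inside the MIR3618 hairpin. In the 100 nt before it, the strongest peak had a log2 fold of 2.20, 1.66, 2.59 and 1.81 (2.06 ± 0.42, SD, n = 4). In the 224 nt between the hairpins the values were 3.44, 3.52, 3.30 and 2.56 (3.21 ± 0.44), and abutting peaks filled most of this stretch in every library. An enriched peak lay in this stretch in every library. In replicate 4 it had 3.20, with a −log10 p of 7.67 beside 8.12 for the peak with 2.56. The enriched peak of replicate 1 lay nearer MIR1306 and was counted there, and those of replicates 2 to 4 were counted at MIR3618. On the MIR1306 hairpin the values were 2.58, 2.15, 2.52 and 2.95 (2.55 ± 0.33). In the 100 nt after MIR1306 they were 4.17, 1.86, 2.69 and 2.86 (2.89 ± 0.96), high in replicate 1 and low in replicate 2. The stretch between the hairpins exceeded the stretch before MIR3618 in all 4 libraries, and the remaining steps were within the spread. MIR3618 and MIR1306 share peaks between the hairpins, so their values are not independent.

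**Figure D2:**
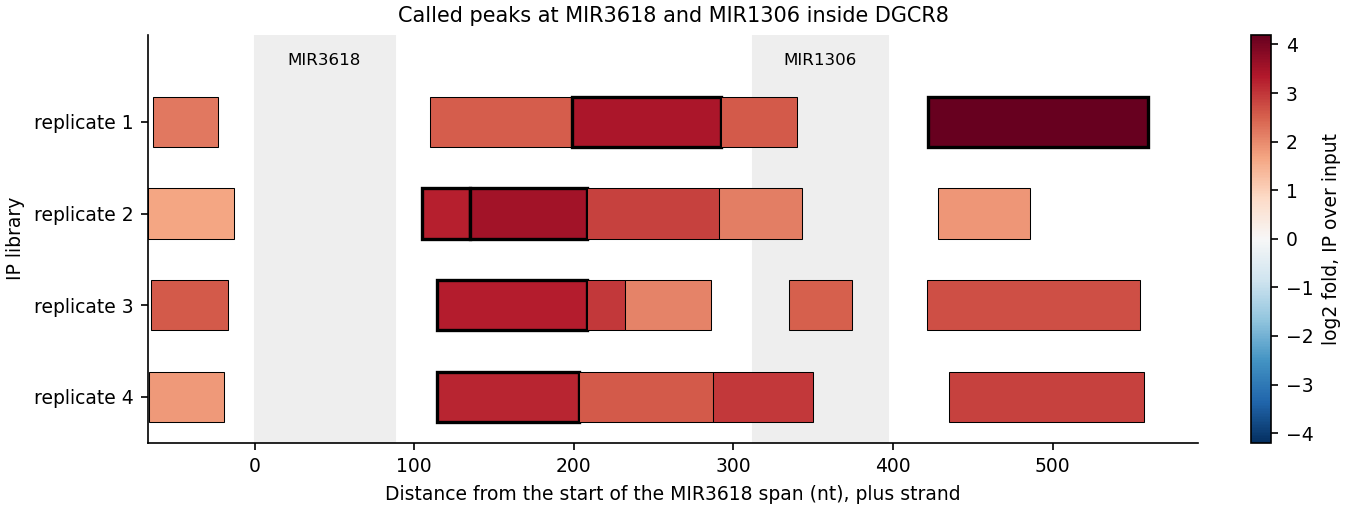
Called peaks of the 4 IP libraries around the MIR3618 and MIR1306 spans (grey) inside DGCR8, against the distance from the start of MIR3618 in nt on the plus strand. Boxes are peaks coloured by log2 fold and thick outlines mark enriched peaks; no box lies on the MIR3618 span, and most of the stretch between the hairpins is covered in every library.

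The other genes of the top 10 by mean fold lay in or near hosts of varied function. MIR769 (chromosome 19, 46018932 to 46019049, plus strand), in no other gene's span, had log2 folds of 3.70, 3.17, 2.59 and 2.58 in replicates 1 to 4 (3.01 ± 0.54, SD, n = 4). No library had an enriched peak there: the −log10 p reached at most 2.74, and replicates 3 and 4 were also under the fold limit. The peak that gave the value was upstream of or over the start of the hairpin in replicates 1, 3 and 4 and downstream of it in replicate 2, where the upstream peak had −1.0.

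MIR1914 (chromosome 20, 63941465 to 63941544, minus strand) and MIR647 (63942631 to 63942726, minus strand) both lie in UCKL1, a uridine and cytidine kinase-like gene of the minus strand. MIR1914 had 3.81, 2.91, 2.46 and 2.14 (2.83 ± 0.72, SD, n = 4), on a peak over the 3′ end of the hairpin in every library. Without the widening of the span, its mean was 1.41 ± 1.23. MIR647 had 3.58, 1.81, 1.59 and 2.50 (2.37 ± 0.90, SD, n = 4), from a single called peak per library at its 3′ side. Replicate 1 was the highest at both genes and was the only library with an enriched peak there.

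MIR4479 (chromosome 9, 136886733 to 136886803, plus strand) lies in TRAF2, an adaptor of tumour necrosis factor receptor signalling. Its values were 3.06, 2.76, 1.74 and 3.06 (2.65 ± 0.63, SD, n = 4), with replicate 3 the lowest. In each library a peak lay before the hairpin, another on it and a further one after it. The enriched one lay after the hairpin in replicate 1 and before it in replicate 4.

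MIR1271 (chromosome 5, 176367946 to 176368031, plus strand), in the small-GTPase gene ARL10, had 3.17, 3.46, 2.17 and 1.81 (2.65 ± 0.79, SD, n = 4). Its peak overlapped the 5′ end of the hairpin in replicates 2, 3 and 4 and lay 61 nt beyond the hairpin in replicate 1. MIR1469 (chromosome 15, 96333261 to 96333307, plus strand), in the nuclear receptor gene NR2F2, had 2.58, 1.59, 2.59 and 2.70 (2.36 ± 0.52, SD, n = 4). Replicate 2 was the lowest at MIR1469, and the peak with the highest −log10 p lay upstream of the hairpin in all 4 libraries. MIR3176 (chromosome 16, 543277 to 543366, plus strand), in CAPN15, had 2.00, 2.12, 2.70 and 2.32 (2.28 ± 0.31, SD, n = 4), the narrowest spread of these 10. The value of replicate 4 came from a peak after the hairpin, and its peak on the hairpin had 3.70. Without the widening of the span, the mean was 2.63 ± 0.78 (SD, n = 4).

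MIR760 (chromosome 1, 93846832 to 93846911, plus strand) was the exception in strand. Its values were 2.32, 2.59, 2.32 and 3.17 (2.60 ± 0.40, SD, n = 4), but every one of its peaks was on the minus strand. That is the strand of BCAR3, the adaptor gene whose span holds it, and not the strand of the miRNA.

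**Figure D3:**
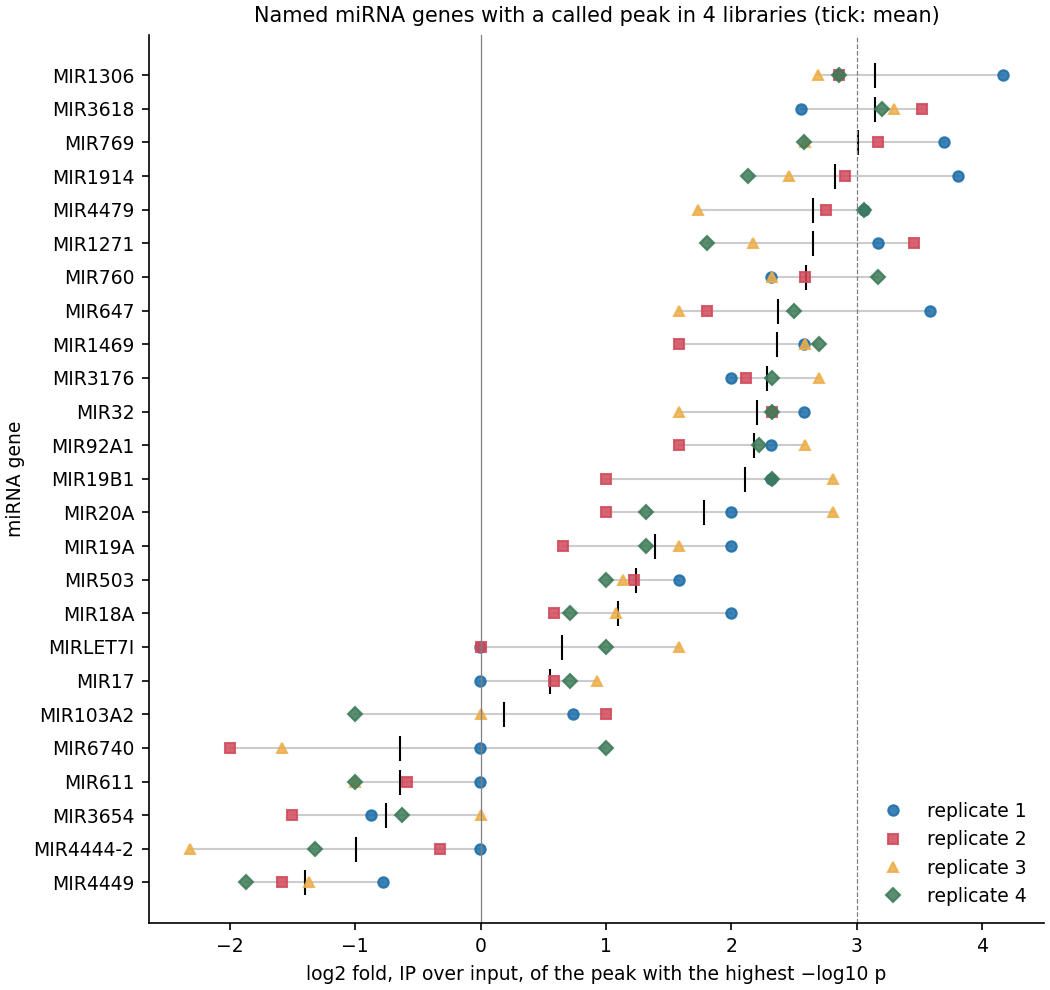
Log2 fold of IP over input for the named miRNA genes with a called peak in all 4 libraries, each by its peak with the highest −log10 p. Points are libraries, the tick is their mean, the solid line is 0 and the dashed line a log2 fold of 3; MIR1306 runs from 2.69 to 4.17 at the top and MIR4449 from −1.87 to −0.78 at the bottom.

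The MIR17HG transcript carries 6 hairpins whose miRNAs promote proliferation, and all 6 genes had a called peak in every library, none of them enriched. MIR17 (chromosome 13, 91350605 to 91350688, plus strand) had log2 folds of 0.00, 0.59, 0.93 and 0.71 in replicates 1 to 4 (0.56 ± 0.40, SD, n = 4). MIR18A, next in order, had 2.00, 0.59, 1.08 and 0.71 (1.09 ± 0.64). MIR19A, whose seed GUGCAAA it shares with MIR19B1, had 2.00, 0.65, 1.59 and 1.32 (1.39 ± 0.56). The first 3 hairpins thus stayed at or below 2.00 in each library.

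MIR20A, with the seed of MIR17, had 2.00, 1.00, 2.81 and 1.32 (1.78 ± 0.80, SD, n = 4). MIR19B1 had 2.32, 1.00, 2.81 and 2.32 (2.11 ± 0.78). MIR92A1 (91351314 to 91351391, plus strand), the last hairpin, had 2.32, 1.59, 2.59 and 2.22 (2.18 ± 0.42). Replicate 2 was the lowest of the libraries at each of the last 5 genes. The means of this value rise from the first gene to the last, and neighbouring genes do not differ beyond their spread. The genes are close enough to share peaks, so the 6 values are not independent: in replicates 2 to 4 the value of MIR17 came from a peak beyond its hairpin that MIR18A shares. With 500 nt in place of 100, the means of MIR17 and MIR18A were both 1.78 ± 0.80 (SD, n = 4).

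When each MIR17HG peak was assigned by its midpoint to 1 hairpin or gap, the means no longer rose in order over the first 4 hairpins. Peaks on the MIR17 hairpin had 0.00, 1.00 and 2.00 in replicates 1, 3 and 4, with none in replicate 2 (mean 1.00 ± 1.00, SD, n = 3). Those on MIR18A had a mean of 0.55 ± 0.98 (n = 4), those on MIR19A of 1.00 ± 0.73 (n = 4) and those on MIR20A of 0.67 ± 0.58 (n = 3). The last hairpins had the higher means. Peaks on MIR92A1 had 2.32, 1.59, 2.32 and 2.32 (2.14 ± 0.37, SD, n = 4) and those on MIR19B1 had 2.58, 1.00, 2.59 and 2.58 (2.19 ± 0.79). The range on MIR17 overlapped that on MIR92A1. The gap between MIR19A and MIR20A, with no hairpin, had 2.00, 0.65, 1.59 and 1.32 (1.39 ± 0.56). The gaps between MIR18A and MIR19A and between MIR19B1 and MIR92A1 had no called peak midpoint in any library. The −log10 p over this whole cluster was at most 2.29.

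**Figure D4:**
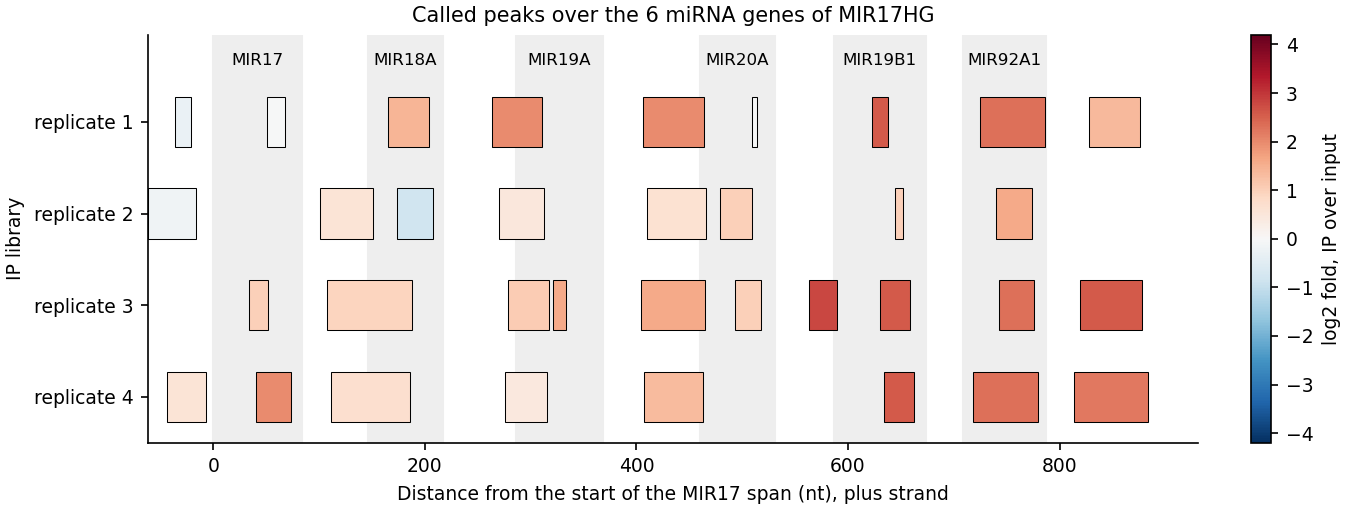
Called peaks of the 4 IP libraries over the 6 miRNA spans (grey) of MIR17HG, against the distance from the start of MIR17 in nt on the plus strand. Boxes are peaks coloured by log2 fold; darker boxes lie over MIR19B1, MIR92A1 and beyond, and paler ones near MIR17.

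The remaining well-known families are set beside all miRNA genes. Of these, 451 of 1913 (23.6%) had a called peak, and 92 had one in all 4 libraries. The let-7 family, which represses growth-promoting messenger RNAs such as those of RAS genes, has 12 genes, of which 7 had a called peak, 1 had one in all 4 libraries and none had an enriched peak. That gene, MIRLET7I (chromosome 12, 62603686 to 62603769, plus strand), had 0.00, 0.00, 1.59 and 1.00 in replicates 1 to 4 (0.65 ± 0.78, SD, n = 4). The first 2 libraries were at 0 and the others above it. When any overlap with the widened span counted, it had a mean of 1.49 ± 0.35, and with 500 nt in place of 100 one of 2.46 ± 0.63.

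Among the 11 genes of the related miR-15, miR-16, miR-103 and miR-107 group, whose members act in cell-cycle and metabolic control, 4 had a called peak and 2 had one in all 4 libraries. MIR503 (chromosome X, 134546328 to 134546398, minus strand) had 1.58, 1.22, 1.14 and 1.00 (1.24 ± 0.25, SD, n = 4), each from a peak whose 3′ end lay next to the 5′ end of the hairpin. MIR103A2 (chromosome 20, 3917494 to 3917571, plus strand), in the pantothenate kinase gene PANK2, had 0.74, 1.00, 0.00 and −1.0 (0.18 ± 0.90, SD, n = 4), on either side of 0.

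Of the 15 genes of the miR-17 family clusters, 7 had a called peak: the 6 of MIR17HG and MIR93, called in 3 libraries with log2 folds of 0.00, −1.0 and 0.00. A list of 4 precursors described elsewhere as bound by RBFOX proteins (MIR20B, MIR107, MIR15A and MIR485) had no called peak in any library. Of 14 listed genes named as miRNAs that overlap ribosomal RNA or repeats, 11 were in the gene table and none had a called peak. The median of the mean log2 fold was 1.59 for the 6 genes of the miR-17 clusters called in all 4 libraries, beside 0.58 for the 92 genes together.

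At the low end, MIR4449 (chromosome 4, 52712682 to 52712747, plus strand) was below 0 in every library. It lies in DANCR, a long non-coding RNA, and had −0.78, −1.58, −1.37 and −1.87 in replicates 1 to 4 (−1.40 ± 0.46, SD, n = 4). MIR4444-2 had a mean of −0.99 ± 1.05, MIR3654 of −0.75 ± 0.62, MIR6740 of −0.65 ± 1.39 and MIR611 of −0.65 ± 0.47 (SD, n = 4 for each). Each of these 4 had at least 1 library within 0.01 of 0, and MIR6740 reached 1.00 in replicate 4. With 500 nt in place of 100, MIR3654 turned to 0.89 ± 0.61 and MIR611 to 0.15 ± 1.07, and without widening MIR3654 had −1.37 ± 0.98. MIR4444-2 has a copy, MIR4444-1, with the same mature seed and a mean of 0.18 ± 0.84.

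A second comparison tested the fold of each region against 0. Peaks of the 4 libraries were merged where they overlapped on a strand, and 49493 regions with a called peak in all 4 were fitted together with limma (Benjamini-Hochberg adjustment over all regions, two-sided, threshold 0.05). A region belonged to a miRNA gene if any of its peaks did, so its value can come from another peak that lies farther from the gene. Of 120 such regions, 39 (32.5%) were higher in IP than in input and 1 (0.833%) was lower, beside 21.1% higher and 1.81% lower over all regions. The median of the mean log2 fold was 0.82 at miRNA genes and 0.50 over all regions.

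The top 2 miRNA-gene regions with a peak in DGCR8 were the stretch after MIR1306 (chromosome 22, 20086167 to 20086671), with a mean log2 fold of 3.78 ± 0.22 (limma SE; adjusted p = 0.00408), and the stretch from between the hairpins into MIR1306 (20085851 to 20086119), with 3.21 ± 0.28 (adjusted p = 0.00469). The values of the former, 3.62, 3.78, 3.76 and 3.96 in replicates 1 to 4, came from peaks farther into DGCR8 and not from those in the 100 nt after MIR1306. The region at MIR296 (chromosome 20, 58817465 to 58817561, minus strand) had 3.03 ± 0.23 (limma SE, limma adjusted p = 0.00435). Its log2 folds ran from 2.81 in replicate 1 to 3.32 in replicate 4. The region on MIR92A1 (chromosome 13, 91351323 to 91351390) had 2.14 ± 0.26 (limma adjusted p = 0.00796), and the one opposite MIR760 had 2.60 ± 0.27 (adjusted p = 0.00592). Of the 5 regions at the MIR17HG miRNA genes, 3 were higher. The 2 over MIR18A and the start of MIR19A were not called (limma adjusted p = 0.0656 and 0.109). No region on the MIR17 hairpin was tested, since replicate 2 had no called peak there. A region before MIRLET7I (chromosome 12, 62603520 to 62603681) had 1.81, 1.59, 1.59 and 1.00 (1.49 ± 0.26, limma SE; adjusted p = 0.0173).

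These calls leaned on all 4 libraries. Without replicate 1, 2, 3 or 4, limma called 12, 20, 17 and 17 miRNA-gene regions higher (10.0%, 16.7%, 14.2% and 14.2% of 120, beside 7.11%, 7.88%, 8.83% and 7.81% of all regions), and 11, 19, 16 and 17 of these were among the 39. Of the 39, 9 were called under each of the 4 omissions, among them the 2 DGCR8 regions just described and those at MIR296, MIR760 and MIR92A1. The same count was not made over all regions, so whether 9 is many or few for this test is not known. The MIRLET7I region stayed called without replicate 4 (limma adjusted p = 0.0429) and was lost without replicate 1 (0.0645), 2 (0.0649) or 3 (0.0643). The single lower region, at MIR4449 (limma adjusted p = 0.0253), held without replicate 1 (0.0497) and was lost without replicate 2 (0.0912), 3 (0.0845) or 4 (0.0782). Tested against a log2 fold of 1 in place of 0, 9 miRNA-gene regions (7.50%) were higher and none lower, beside 5.6% higher and 0.188% lower over all regions. Among regions that reached a −log10 p of 3 in any library, 14 of 14 at miRNA genes were higher, as were 99.5% of all such regions. That limit admits only regions with a positive fold in some library, so these shares are no separate support for the calls.

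The third question was where on the precursor the peaks lay. Of the peaks at miRNA genes with a known strand, 92.3% ± 0.833 (SD, n = 4 libraries) were on the strand of the miRNA, which gave 1067 sense and 90 antisense peaks. All 13 enriched peaks were sense. The mean log2 fold of antisense peaks was 0.40 ± 0.17 and that of sense peaks 0.38 ± 0.12 (SD, n = 4), a difference within the spread (exact permutation, p = 1). By midpoint, 411 sense peaks lay in the 5′ flank, 227 on the hairpin span and 429 in the 3′ flank, and 4, 1 and 8 of these were enriched. The mean log2 fold on the hairpin was 0.46 ± 0.17, against 0.40 ± 0.07 in the 5′ flank and 0.30 ± 0.24 in the 3′ flank (SD, n = 4). The hairpin exceeded the 3′ flank in 4 of 4 libraries, by 0.15 ± 0.11 (exact permutation, two-sided p = 0.13), and differed from the 5′ flank by less than the spread (0.06 ± 0.20, p = 0.75, exact permutation).

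Called peaks thinned out at the ends of the precursors. For 807 genes with both mature arms in the sequence table, the ends of the arms mark about where Microprocessor cuts. In replicates 1 to 4, the mean number of sense peaks covering a base was 30.3, 31.7, 34.3 and 36.5 in the 50 nt before the 5p arm. It was 16.2, 14.9, 18.3 and 14.9 in the first 21 nt of that arm. At the other end it was 13.6, 12.8, 14.0 and 13.9 in the last 21 nt of the 3p arm, and 26.0, 23.3, 22.4 and 20.8 in the 50 nt after it. The flanks were above the arms in each library at both ends. These counts are of called peaks in IP lists. Coverage of the inputs was not used here, and whether it falls in the same way was not tested.

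More peaks ended just outside the arms than just inside them. These counts use the same peaks as the coverage above and follow from its drop in part, so they are no separate support for it. In the 10 nt before the 5p arm, 10, 11, 11 and 12 peaks had their 3′ end, and in the first 10 nt of the arm 3, 6, 2 and 7 did, so that the counts did not overlap. Over the libraries this was 44 against 18, a difference of 6.50 ± 1.91 peaks per library (SD, n = 4), positive in 4 of 4 (exact sign-flip permutation, two-sided p = 0.13). In the 10 nt after the 3p arm, 11, 10, 10 and 9 peaks had their 5′ end, against 2, 5, 2 and 7 in the last 10 nt of the arm. This was 40 against 16, a difference of 6.0 ± 3.16 peaks per library, positive in 4 of 4 (exact permutation, p = 0.13). With the ends of the RefSeq span in place of the arms, the first difference fell to 2.50 ± 2.65 and was positive in 3 of 4 libraries. The second was then 7.0 ± 1.41. Counted over 20 nt, the second was 9.25 ± 6.99 and positive in 3 of 4 libraries, with replicate 4 tied at 12 and 12 (exact permutation, p = 0.25).

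**Figure D5:**
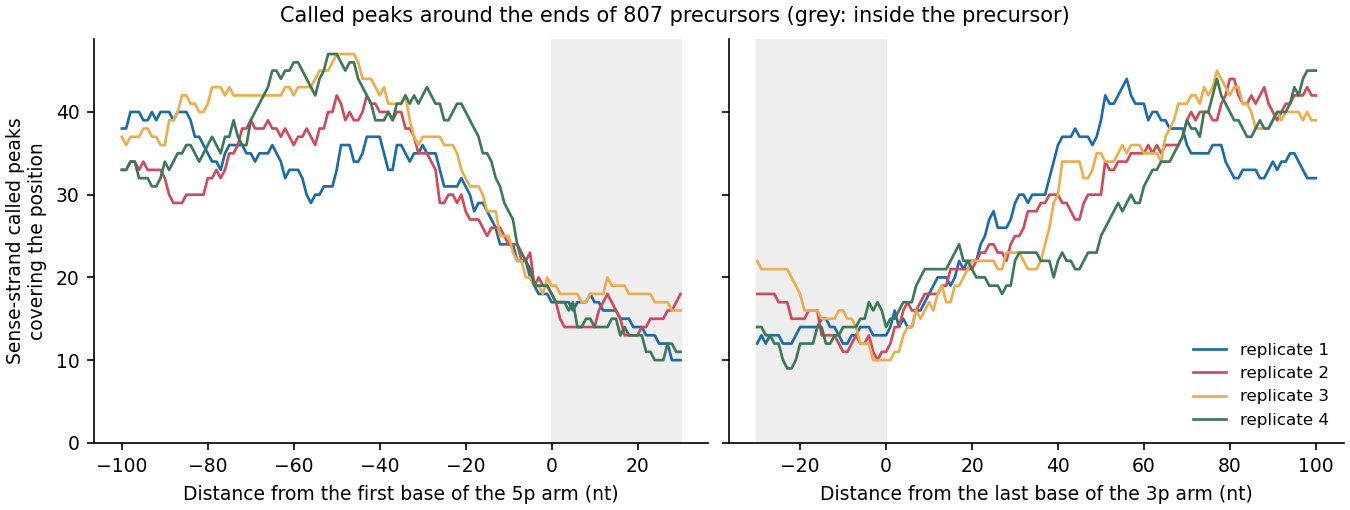
Number of sense-strand called peaks covering each position around the first base of the 5p arm (left) and the last base of the 3p arm (right) of 807 precursors, against the distance in nt, with the precursor side in grey. Lines are the 4 IP libraries; each falls from 30.3 to 36.5 peaks on average in the 50 nt before the precursor to 14.9 to 18.3 in the first 21 nt of the 5p arm, and rises again after the 3p arm.

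The share of hairpins with the RBFOX motif was close to the share in all hairpins, within wide intervals. GCAUG, searched on the strand of the miRNA alone since the target is RNA, was in 113 of 1558 RefSeq hairpins (7.25%), in 26 of 392 of those with a called peak (6.63%) and in 6 of 81 of those with one in all 4 libraries (7.41%, exact 95% binomial interval 2.77% to 15.4%). It was in 0 of 7 hairpins of genes with an enriched peak, which allows a share of up to 41.0%. The longer UGCAUG, each match of which also holds GCAUG, was in 34 of 1558 (2.18%) and in 3 of 81 (3.70%). The secondary motif GCACG was in 41 of 1558 (2.63%) and in 4 of 81 (4.94%). These shares cover the hairpin only, not the flanks or the host.

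The 6 hairpins with GCAUG and a called peak in all 4 libraries ranged widely, and they were named after their values were seen. MIR32 had a mean log2 fold of 2.20 ± 0.43, MIR3677 of 1.90 ± 0.99, MIR221 of 0.52 ± 0.42, MIR1282 of 0.19 ± 0.30, MIR6797 of −0.31 ± 0.61 and MIR6869 of −0.62 ± 1.41 (SD, n = 4 for each). With 500 nt in place of 100, MIR6869 turned to 1.12 ± 0.82. The median of the 6 was 0.35, beside 0.61 for the 75 genes without the motif. MIR32 lies in TMEM245 on the minus strand (chromosome 9, 109046229 to 109046298), and its values were 2.58, 2.32, 1.59 and 2.32 in replicates 1 to 4. The value of replicate 1 came from a peak on the 3′ side of the hairpin. A peak over the 5′ end was called in every library, with 1.41 in replicate 1 and the values just given in the others. The MIR32 hairpin is shown beside that of MIR107, which has GCAUG and no called peak, with the motif in capitals:
MIR32: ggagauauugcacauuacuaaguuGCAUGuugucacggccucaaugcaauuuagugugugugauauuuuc
MIR107: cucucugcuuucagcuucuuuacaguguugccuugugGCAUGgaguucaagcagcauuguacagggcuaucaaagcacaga
In MIR32 the motif runs from base 25 to 29 and overlaps the end of the 5p arm. In MIR107 (chromosome 10, 89592747 to 89592827, minus strand) it runs from base 38 to 42, before the mature miRNA.

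The share of genes with a peak differed between host contexts. A called peak was found for 386 of 1212 miRNA genes inside a protein-coding span (31.8%), for 48 of 328 inside other gene spans only (14.6%) and for 17 of 373 in no other gene's span (4.56%). The levels of the hosts were not measured, and their part in these shares was not tested. Of the 13 enriched peaks, 12 lay with genes in protein-coding spans and 1, at MIR296 in replicate 3, with a gene outside all other spans. Most miRNA-gene peaks of any kind lay with genes in protein-coding spans: 237 of 283, 251 of 300, 264 of 322 and 274 of 326 in replicates 1 to 4.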

How the data were processed

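RBFOX2 eCLIP peak lists of 4 IP libraries, compared by the authors with their own inputs, were used as deposited. No header names the columns, and their units were inferred: column 4 behaves as a −log10 p-value deposited by the authors (0 wherever the fold is under 0, highest value 400), and column 5 as the authors' log2 fold of IP over input. Per the submitters' processing notes, UMI-tools 1.1.1, cutadapt 3.2 and STAR 2.7.7a were used, with builds named as hg38 and GRCh38.p13. The peak caller, its test, the scaling and the treatment of reads that match several places are not given in the sources used here. Depth is therefore unknown, and the step of the −log10 p at a given fold differed between replicates 2 and 3 and the others.

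Gene spans came from a RefSeq table of GRCh38.p14, the strand and sequences of miRNAs from RefSeq sequence tables (424 of the 451 genes with a peak had a strand and 392 a hairpin). Coordinates are 1-based. Libraries were compared by exact two-sided sign-flip permutation. Regions with a called peak in all 4 libraries were fitted with limma 3.58.1 in R 4.3.3 (intercept only, eBayes without trend), after the fit was tested on simulated data. Named genes were those with an enriched peak in 3 or more libraries, the 10 highest and 5 lowest by mean log2 fold among genes called in all 4, and the genes of the fixed lists called in all 4. The members, lists and tests were chosen with earlier results of these data known. Alternatives were the window, overlap, strand and snoRNA rules, the thresholds, the value of a region, the limma settings and each left-out replicate. Python 3.11.15, numpy 2.4.6, pandas 2.3.3, scipy 1.17.1 and matplotlib 3.10.9 were used.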

Additional observations from a re-analysis of the deposited data

Results flagged for a closer look

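Of 39 sets of 4 replicate values checked for a value far from the other 3, 3 stood out, and chance alone marks about 1 set in 20. The log2 fold of MIR1306 was 4.17 in replicate 1, against 2.86, 2.69 and 2.86 in replicates 2 to 4. These are not all of 1 place: the value of replicate 2 came from a peak between the hairpins. In the 100 nt after MIR1306 the values were 4.17, 1.86, 2.69 and 2.86. The log2 fold of MIR1469 was 1.59 in replicate 2, against 2.58, 2.59 and 2.70 in the other libraries. The median log2 fold of all miRNA-gene peaks was 0.0987 in replicate 1, against 0.00141, 0.000771 and −0.000497 in replicates 2 to 4.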

How the results depend on the processing

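The mean log2 fold of miRNA-gene peaks over other peaks stayed positive under every alternative run, and without 1 replicate it lay between 0.18 and 0.24; it was smallest, 0.05 ± 0.06 (SD, n = 4 libraries), when peaks inside snoRNA and scaRNA spans were kept. The difference in enriched share against other peaks turned negative with no widening of the spans (−0.451 percentage points) and with a −log10 p of at least 5 (−0.0378), and the difference against snoRNA and scaRNA genes turned positive with 500 nt (0.261). Without 1 replicate they ranged from 0.0444 to 0.401 and from −0.468 to −0.0539. The 8 genes with an enriched peak became 1 with 0 nt, 24 with 500 nt, 2 with a −log10 p of at least 5, and 5 to 8 without 1 replicate. The 92 genes called in all libraries became 22 with 0 nt, 317 with 500 nt and 104 to 118 without 1 replicate. The 39 higher regions became 9 tested against a log2 fold of 1 (7.50%, beside 5.6% of all regions), 16 of 32 with 0 nt (beside 21.1%), 102 with 500 nt (32.7%, beside 21.1%), and 12 to 20 without 1 replicate. Where only regions reaching a −log10 p of 3 in any library entered, 14 of 14 were higher, as were 99.5% of all such regions. This filter takes in only regions with a positive fold in some library, so the counts under it do not test the calls. The 1 lower region (0.833%, beside 1.81% of all regions) became 3 with robust eBayes (2.50%, beside 2.24%) and 3 with 500 nt (0.962%, beside 1.81%). It became 0 tested against a log2 fold of 1 (beside 0.188%) and 0 among regions reaching a −log10 p of 3 (beside 0%). Without replicate 1 it stayed 1 (0.833%, beside 0.453%), and without replicate 2, 3 or 4 it became 0 (beside 0.495%, 0.499% and 0.434%). Fewer or more spans, regions and libraries enter these alternatives by construction; other causes were not tested. No paired analysis was possible because a replicate block needs separate IP and input values; the authors' folds are paired already, and the tests over libraries are tests of these paired values. Depth limits every value, since the files used give no read counts.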

Other observations

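MIR612, MIR4321, MIR221 and MIR222, outside the rule for named genes, were noticed after their values were seen. MIR4321, in the hormone gene AMH, had log2 folds of 2.65, 2.22, 2.12 and 2.04 in replicates 1 to 4 (mean 2.26 ± 0.27, SD, n = 4), a narrower spread than any of the 10 highest genes. That spread depended on the window: the mean was 1.78 ± 0.67 without widening and 2.68 ± 0.33 with 500 nt (SD, n = 4). MIR612, in the nuclear long non-coding RNA NEAT1, had 2.26, 1.65, 2.20 and 2.46 (2.14 ± 0.35, SD, n = 4). MIR221 and MIR222 share the seed GCUACAU and had means of 0.52 and 0.15.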
